A study of Mus musculus with 12 samples.

Results

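The 10 genes of mitochondrial fatty acid use followed here were measured in T cells of mouse tumours. They are Cpt1a, Cpt2, Slc25a20, Acadvl, Acadl, Acadm, Hadha, Hadhb, Etfa and Ucp2. They were chosen by name, and 10 of 10 were found among the 32285 gene symbols of the expression matrices. Each was measured by its UMI counts (unique molecular identifiers, 1 per captured RNA molecule) in 30749 cells.

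C57Bl/6 mice carried MCA205 fibrosarcomas grown from 300000 cells placed under the skin. All 6 mice received oxaliplatin, a platinum chemotherapy, at 10 mg/kg on day 8 and, 8 days later, 200 µg of anti-PD1, which blocks a receptor that restrains T cells. The groups differed in a second antibody, which was directed against acyl-CoA binding protein (ACBP, also called DBI, the product of Dbi) in 3 mice and was the isotype control IgG2a in 3 mice, each at 2.5 mg/kg every other day, starting 2 days before the chemotherapy and ending on the day before anti-PD1. Tumours were taken 2 days after anti-PD1, CD4+ and CD8+ T cells were sorted and mixed 1:1, and 10000 cells per mouse were loaded, so the data hold no mouse without tumour, chemotherapy or anti-PD1.

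Long-chain fatty acids enter mitochondria as carnitine esters and are then shortened step by step in the matrix. CPT1A at the outer membrane makes the acylcarnitine, the carrier encoded by Slc25a20 moves it across the inner membrane, and CPT2 returns it to a CoA ester. The acyl-CoA dehydrogenases encoded by Acadvl (very long chains), Acadl (long chains) and Acadm (medium chains) take the first step of each cycle, the trifunctional protein of Hadha and Hadhb takes the following ones, and the electron transfer flavoprotein, of which Etfa encodes a subunit, passes the electrons to the respiratory chain. UCP2 is an inner membrane carrier that moves small metabolites and has been linked to the choice of mitochondrial fuel. In T cells, fatty acid oxidation is best known from memory and regulatory T cells.

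Hadha and Hadhb lie head to head on chromosome 5 and share the stretch between their starts, so that stretch is shown, beside the stretch upstream of Ucp2, the gene with the clearest change between the groups. Both come from RefSeq on GRCm38.p6, the build also called mm10. In the RefSeq records Hadha spans chr5:30119423-30154980 on the minus strand and Hadhb chr5:30155253-30184593 on the plus strand, with 272 bases between them. Ucp2 spans chr7:100493337-100499629 on the plus strand and starts 6904 bases after the end of Ucp3, a related carrier gene. Both stretches lie outside the gene records beside them and are written 5′ to 3′ on the plus strand, with GGGCGG, a motif bound by Sp-family factors, or its reverse complement CCGCCC in capitals.
Hadha to Hadhb, chr5:30154981-30155252: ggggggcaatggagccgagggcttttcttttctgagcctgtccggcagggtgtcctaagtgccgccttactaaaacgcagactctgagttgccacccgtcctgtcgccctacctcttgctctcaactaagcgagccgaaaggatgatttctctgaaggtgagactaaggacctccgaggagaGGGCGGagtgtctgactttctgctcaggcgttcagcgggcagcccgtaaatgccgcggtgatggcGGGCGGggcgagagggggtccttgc
Upstream of Ucp2, chr7:100493108-100493336: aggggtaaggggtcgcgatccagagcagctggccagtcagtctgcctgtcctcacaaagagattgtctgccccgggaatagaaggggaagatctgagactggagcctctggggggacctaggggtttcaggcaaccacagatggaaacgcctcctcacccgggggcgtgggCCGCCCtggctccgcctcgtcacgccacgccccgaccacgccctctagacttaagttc

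Over the RefSeq promoter windows of 300 bases (250 before and 50 after the start), all 10 members had an entry. GGGCGG on either strand was found in 7 of the 10, namely Acadl, Cpt2, Hadha, Hadhb, Ucp2, Slc25a20 and Cpt1a, and in 35.7% of all 32851 windows. The windows of Hadha and Hadhb overlap, and the match upstream of Hadha also lies in the window of Hadhb, so it counts for both. AGGTCA, the core site of many nuclear receptors, was found in those of Acadm, Acadvl and Cpt1a (16.3% of all windows). The longer TCAAGGTCA, which contains AGGTCA and is bound by the estrogen-related receptors, was found in none of the 10 (0.42% of all windows). CACGTG was also in none (7.15%), and CCAAT was in those of Etfa and Cpt1a (37.4%). The window of Cpt1a (chromosome 19, 3323051 to 3323350) lies wholly inside its gene record, which starts at 3322326, so its matches are not upstream of the record, and the window of Ucp2 is set from a start shortly inside its record. These matches describe letters in a window and say nothing of binding.

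The deposited table numbers 9 clusters without naming them, and 3 classes were read from their markers. CD8 T cells (16945 cells) are clusters 0, 3 and 6, conventional CD4 T cells (8902) are clusters 1 and 7, and regulatory T cells (4706, Foxp3+) are cluster 2. Cells of the mixed clusters 4 (cycling), 5 (cytokine genes) and 8 (heat-shock genes) were assigned by their own Cd4, Cd8 and Foxp3 UMIs, which left 196 cells without a class. Among conventional CD4 T cells 12.5% still carried more Cd8 than Cd4 UMIs. Libraries held 2923 to 7238 used cells and 27791735 to 65519423 UMIs. The median was 7148, 4556 and 4516 UMIs per cell in isotype 1, 2 and 3 and between 6602.5 and 7682 in the anti-ACBP mice, so isotype 2 and 3 were the shallower libraries.

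The labelled T cells carried their markers, and the 8 T cell genes summed to between 3249.6 and 6992.1 CPM (UMIs of a gene per 1000000 UMIs) in every class and mouse. Of these genes, Cd4, Cd8a, Cd8b1 and Foxp3 had also served to assign the cells of clusters 4, 5 and 8 to classes. Adgre1, Clec9a, Ms4a1, Postn and Cldn5, which define macrophages, dendritic cells, B cells, fibroblasts and endothelium, had 0 UMIs in all 9 clusters. Other genes of these lists were detected. In cluster 2, Zbtb46 of the dendritic list averaged 12.8 CPM, Cd79b of the B cell list 10.0 CPM and Pecam1 of the endothelial list 38.1 CPM. By class and mouse the 5 B cell genes summed to 0.198 to 14.0 CPM and the 5 NK cell genes to 1.33 to 36.8 CPM. The 10 macrophage and monocyte genes summed to 6.04 to 29.2 CPM, of which Cd68 gave most, and the 5 neutrophil genes to at most 0.53 CPM. Some lists differed between the groups without overlap. Among CD8 T cells the 8 dendritic cell genes, led by Cd74, summed to 26.5 to 59.4 CPM in isotype against 61.9 to 88.5 CPM in anti-ACBP mice, and in conventional CD4 T cells the 4 endothelial genes, led by Pecam1, to 22.8 to 25.7 and 14.7 to 22.1 CPM. In each of these cases 2 genes of the list had 0 UMIs, and their part in the results was not tested. The 8 fibroblast and tumour cell genes also differed in CD8 T cells (1550.8 to 1716.7 against 1725.5 to 1744.4 CPM), where Thy1, which T cells express too, gave most.

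Every level below is in CPM after edgeR's TMM scaling, and changes are log2 values, anti-ACBP minus isotype, from edgeR's quasi-likelihood test on counts summed per mouse, adjusted over all genes tested. The numbers of UMIs behind the members differ widely and set their precision: Ucp2 had 179769 UMIs in the 30749 cells, Acadl 28295, Etfa 18749, Hadhb 18322, Hadha 14888, Acadvl 10814, Slc25a20 9979, Cpt1a 6925, Acadm 4303 and Cpt2 1319.

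Ucp2 was lower in mice given the antibody to ACBP, and was the only member that passed the test in any class. Among conventional CD4 T cells it stood at 1019, 1216 and 1099 CPM in the isotype mice and at 729, 799 and 811 CPM in the anti-ACBP mice. The 3 anti-ACBP mice all lay below the 3 isotype mice. The means were 1111 ± 98.9 and 779.5 ± 44.0 CPM (SD, n = 3), and Ucp2 fell by 0.52 ± 0.09 on the log2 scale (SE; edgeR adjusted p = 0.0493). In this class 0.329% of the 10938 tested genes passed, and 1 of 10 members did.

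In CD8 T cells Ucp2 stood at 686, 718 and 744 CPM in the isotype mice and at 641, 610 and 623 CPM in those given anti-ACBP. The groups did not overlap here either, but the log2 change of -0.21 ± 0.06 (SE) did not pass (edgeR adjusted p = 0.133). In regulatory T cells the values were 816, 1013.7 and 830 CPM against 704, 664 and 719 CPM, again without overlap, with a change of -0.33 ± 0.09 that also did not pass (edgeR adjusted p = 0.0770). Over all T cells together the change was -0.34 ± 0.08 (edgeR adjusted p = 0.0600). The make-up of this pool moved with the groups: the 6 regulatory T cell markers summed to 2831.4 to 3293.4 CPM in isotype against 1856.5 to 2710.6 CPM in anti-ACBP mice, and the 8 cytotoxic markers to 7049.0 to 9790.3 against 10252.3 to 14278.1 CPM. Its part in the pooled changes was not tested. The passing share of all genes was 0.929% in CD8, 3.45% in regulatory and 2.35% in all T cells, and 0 of 10 members passed in each of the 3. An unadjusted p under 0.05 was reached by 4 of 10 members in each. Of all genes, 2098 of 11738, 2199 of 10422 and 2722 of 12492 reached it, in the same order. DESeq2 called Ucp2 in regulatory T cells and Ucp2 and Cpt1a in all T cells.

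**Figure D1:**
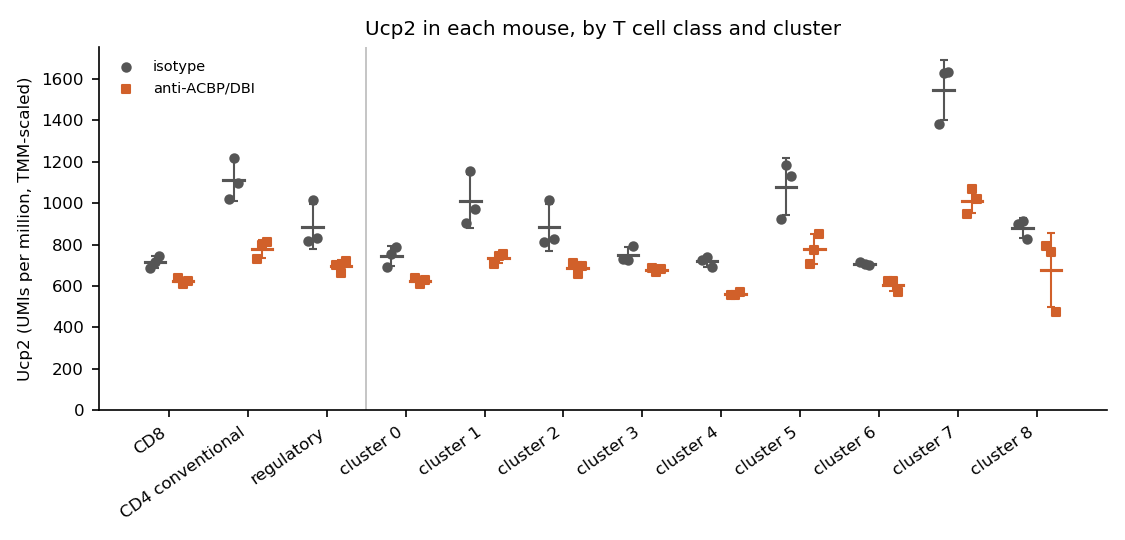
Ucp2 level (TMM-scaled CPM, linear axis from 0) in each mouse, for the 3 T cell classes and the 9 deposited clusters; grey circles are isotype and orange squares anti-ACBP/DBI mice, horizontal lines the mean and bars the SD of 3 mice. The anti-ACBP mice lie lower in each class, with the widest gap in cluster 7 and among conventional CD4 T cells, where 729 to 811 CPM face 1019 to 1216 CPM.

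The call in conventional CD4 T cells was close to the threshold. It was kept without isotype 1 and lost without any other single mouse (isotype 2 or 3, or anti-ACBP 1, 2 or 3), with changes between -0.45 and -0.54 and edgeR adjusted p between 0.0854 and 0.168. It was also lost with only cells that carried more Cd4 than Cd8 UMIs (-0.51, edgeR adjusted p = 0.0611) and without the cells marked FALSE in the deposited DF1 column (-0.50, edgeR adjusted p = 0.0504). Over the 15 settings run in each class, the change of Ucp2 was negative in 15 of 15 for CD8, conventional CD4 and regulatory T cells alike.

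Other measures moved with the groups. The summed level of 10 cell cycle markers was 1818.6 to 2374.8 CPM in isotype against 1428.1 to 1616.9 CPM in anti-ACBP CD8 T cells, 1086.1 to 1363.3 against 714 to 1125 CPM in conventional CD4 and 1599.3 to 2510.2 against 1062 to 1431.8 CPM in regulatory T cells. In cells assigned to G1 alone, the change of Ucp2 was -0.23 ± 0.08 in CD8, -0.52 ± 0.09 in conventional CD4 (edgeR adjusted p = 0.0434) and -0.42 ± 0.10 in regulatory T cells. The G1 changes in CD8 and regulatory T cells did not pass. The 7 naive and memory genes summed to 398 to 424 CPM in isotype against 537 to 631 CPM in anti-ACBP CD8 T cells and to 850 to 1063 against 1247.8 to 1509.7 CPM in regulatory T cells. The 8 cytotoxic markers summed to 3494.5 to 6367.9 against 6388.5 to 7528.0 CPM in regulatory T cells, and the 7 cytokine genes to 1339.8 to 2232.3 against 2461.1 to 2824.6 CPM in conventional CD4 T cells. Depth differed too, since isotype 2 and 3 had the fewest UMIs per cell. The median depth of isotype 1 lay within the range of the anti-ACBP mice over all cells and in CD8 and conventional CD4 T cells. In regulatory T cells it lay above that range, at 8869 against 5356.5 to 7112.5 UMIs per cell. Isotype 1 had the lowest Ucp2 of its group in each class. It stood at 686, 1019 and 816 CPM in CD8, conventional CD4 and regulatory T cells. The highest anti-ACBP mouse of each class had 641, 811 and 719 CPM, in the same order. The part of these markers and of depth in the result was not tested.

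Within the deposited clusters Ucp2 had a negative change in 8 of the 8 that had at least 20 cells in every mouse, and passed in 2. In cluster 7, conventional CD4 cells, it stood at 1380.3, 1630.4 and 1633.8 CPM in isotype mice and at 947.5, 1066.4 and 1019.4 CPM in anti-ACBP mice, and fell by 0.62 ± 0.11 on the log2 scale (SE; edgeR adjusted p = 0.00672). In cluster 4, the cycling cells of both lineages, 726.5, 740.6 and 690 CPM faced 556, 559 and 571 CPM, a fall of 0.34 ± 0.06 (edgeR adjusted p = 0.0217). In both clusters each anti-ACBP mouse lay below each isotype mouse. The background was 0.439% of genes called in cluster 7 and 0.918% in cluster 4.

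The cluster 7 call was lost without anti-ACBP 1 alone (edgeR adjusted p = 0.0588). The cluster 4 call was kept without isotype 1 and lost without each other mouse, with edgeR adjusted p between 0.0637 and 0.132. The changes of Ucp2 that did not pass were -0.48 ± 0.11 (SE) in cluster 5, -0.46 ± 0.10 in cluster 1, -0.35 ± 0.10 in cluster 2, -0.26 ± 0.08 in cluster 0, -0.25 ± 0.09 in cluster 6 and -0.15 ± 0.07 in cluster 3. In these clusters the share of genes called was 0.207%, 0.192%, 3.998%, 1.18%, 2.55% and 0.228%, in the same order. Without isotype 1, Ucp2 passed in clusters 0 (-0.32, edgeR adjusted p = 0.0372), 1 (-0.54, 0.0238) and 5 (-0.59, 0.00773). Cluster 8 was not tested because 2 anti-ACBP mice had 14 and 19 cells in it.

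**Figure D2:**
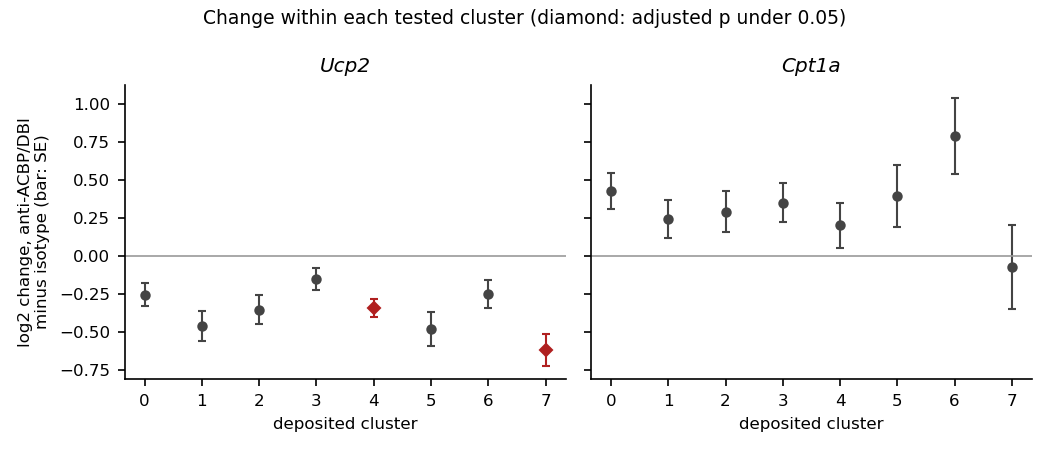
Log2 change of Ucp2 (left) and Cpt1a (right) between anti-ACBP/DBI and isotype mice within clusters 0 to 7, with bars of 1 SE; red diamonds passed at an adjusted p under 0.05. Ucp2 lies below 0 in 8 of 8 clusters, between -0.62 and -0.15, and Cpt1a above 0 in 7 of 8.

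Whether the change of Ucp2 differed between classes was tested by an interaction term, in a fit that held each mouse as a block. The change in conventional CD4 was 0.31 ± 0.08 (SE) lower on the log2 scale than in CD8 T cells, which did not pass (edgeR adjusted p = 0.445). The difference of regulatory from CD8 T cells was -0.11 ± 0.10 (edgeR adjusted p = 0.775) and that of regulatory from conventional CD4 T cells 0.20 ± 0.07 (edgeR adjusted p = 0.244). Of the 10 members 0 passed in any of the 3 interactions, in which 0.00840%, 0.468% and 0.221% of all genes were called. At an unadjusted p under 0.05 stood Acadm and Ucp2 in CD4 against CD8 and in regulatory against CD4 T cells, and 0 members in regulatory against CD8 T cells. Of all genes, 875 of 11908, 1382 of 10873 and 1166 of 12174 stood there, in the same order.

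Among the genes of carnitine-dependent entry, Cpt1a, the gate that malonyl-CoA inhibits, was higher on average with the antibody to ACBP but did not pass in any class or cluster. In CD8 T cells it stood at 27.6, 21.5 and 24.6 CPM in isotype mice and at 33.6, 30.9 and 32.0 CPM in anti-ACBP mice, without overlap. The means were 24.5 ± 3.07 and 32.2 ± 1.39 CPM (SD, n = 3), a log2 change of 0.38 ± 0.10 (SE; edgeR adjusted p = 0.113). In conventional CD4 T cells the values were 27.7, 27.6 and 25.9 CPM against 30.5, 29.1 and 34.4 CPM (0.21 ± 0.10, edgeR adjusted p = 0.391). In regulatory T cells they were 28.6, 21.9 and 26.7 CPM against 31.7, 34.4 and 29.7 CPM (0.33 ± 0.13, edgeR adjusted p = 0.187). All 3 classes thus had each anti-ACBP mouse above each isotype mouse for this gene.

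Over all T cells, whose make-up differed between the groups as given for Ucp2, the change of Cpt1a was 0.34 ± 0.08 (SE; edgeR adjusted p = 0.0600). Without isotype 1 Cpt1a passed in CD8 T cells (0.48, edgeR adjusted p = 0.0245), in cluster 0 (0.56, 0.0326) and in all T cells (0.40, 0.0387). The clusters gave changes of 0.79 ± 0.25 in cluster 6, the CD8 cells with Gzma, 0.43 ± 0.12 in cluster 0, and between 0.20 and 0.39 in clusters 1, 2, 3, 4 and 5. Cluster 7 was the exception at -0.07 ± 0.28, where 28.3, 28.2 and 32.3 CPM faced 18.7, 21.9 and 40.5 CPM and the groups overlapped.

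Slc25a20, the carnitine and acylcarnitine carrier, stood at 40.1, 28.8 and 33.4 CPM in isotype against 44.4, 39.6 and 40.9 CPM in anti-ACBP CD8 T cells. Isotype 1 lay inside the range of the other group, and the change of 0.27 ± 0.12 (SE) did not pass (edgeR adjusted p = 0.261); without isotype 1 it was 0.41 (edgeR adjusted p = 0.0398). Conventional CD4 and regulatory T cells had changes of 0.25 ± 0.11 and 0.13 ± 0.09, and neither passed (edgeR adjusted p = 0.326 and 0.467). Cpt2, with few UMIs, ranged from 3.99 to 7.49 CPM over the 3 classes and 6 mice, and its changes of 0.23 ± 0.16, -0.09 ± 0.22 and 0.07 ± 0.24 in CD8, conventional CD4 and regulatory T cells did not pass (edgeR adjusted p = 0.470, 0.896 and 0.911).

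The dehydrogenases did not move as a group. Acadm stood at 16.3, 17.5 and 17.1 CPM in isotype against 20.3, 20.9 and 20.9 CPM in anti-ACBP CD8 T cells, and at 13.5, 13.2 and 12.4 against 21.0, 15.4 and 17.4 CPM in regulatory T cells. In both classes the groups did not overlap, yet the changes of 0.28 ± 0.09 and 0.49 ± 0.16 (SE) did not pass (edgeR adjusted p = 0.143 and 0.116). Acadm had the other sign in conventional CD4 T cells (-0.09 ± 0.11). Acadl had changes of -0.07 ± 0.07, -0.18 ± 0.08 and -0.15 ± 0.08 in CD8, conventional CD4 and regulatory T cells, and Acadvl of 0.11 ± 0.08, 0.10 ± 0.09 and 0.08 ± 0.09. None of these passed.

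Hadha and Hadhb, the neighbours whose shared 272 bases are shown above, encode the α and β subunits of one enzyme. Hadhb stood at 73.3, 73.1 and 78.3 CPM in isotype mice and at 85.1, 84.3 and 85.6 CPM in anti-ACBP conventional CD4 T cells, and Hadha at 61.5, 63.0 and 56.2 against 58.4, 64.3 and 55.1 CPM. The groups were separate for Hadhb and overlapped for Hadha. In regulatory T cells Hadhb stood at 63.6, 67.6 and 66.8 against 80.9, 70.6 and 84.7 CPM and Hadha at 61.6, 66.5 and 66.8 against 58.1, 63.2 and 50.7 CPM. In the order CD8, conventional CD4 and regulatory T cells the changes were 0.11 ± 0.07, 0.18 ± 0.08 and 0.27 ± 0.09 for Hadhb and -0.01 ± 0.07, -0.03 ± 0.09 and -0.15 ± 0.10 for Hadha, and none passed. Whether the pair differed in its change was not tested.

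Etfa had changes of -0.05 ± 0.07, -0.10 ± 0.08 and -0.06 ± 0.10 in CD8, conventional CD4 and regulatory T cells. Its 79.4, 76.9 and 72.7 CPM in anti-ACBP conventional CD4 T cells lay just below the 84.9, 79.5 and 80.4 CPM of isotype mice. Counting all 10 members, the groups did not overlap for 3 in CD8 (Cpt1a and Acadm higher, Ucp2 lower), 5 in conventional CD4 (Cpt1a and Hadhb higher, Acadl, Etfa and Ucp2 lower) and 5 in regulatory T cells (Cpt1a, Acadm and Hadhb higher, Acadl and Ucp2 lower). Of all genes tested 23.5%, 20.9% and 26.2% had groups without overlap in these classes. For CD8, conventional CD4 and regulatory T cells the median change of the 10 members was 0.11, -0.06 and 0.08, against 0.00, -0.01 and 0.00 for all genes.

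**Figure D3:**
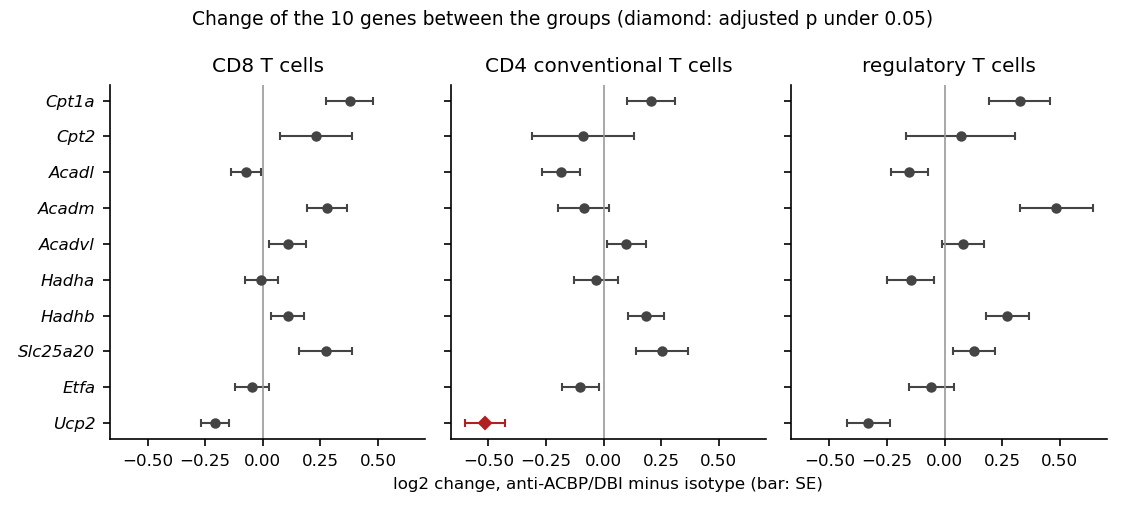
Log2 change of each of the 10 genes between anti-ACBP/DBI and isotype mice in the 3 T cell classes, with bars of 1 SE; the red diamond marks the only adjusted p under 0.05, Ucp2 in conventional CD4 T cells (-0.52 ± 0.09). Cpt1a and Hadhb lie above 0 and Ucp2, Acadl and Etfa below 0 in each class.

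The remaining enzymes of β-oxidation showed little more. Of 31 listed, 29 were tested in CD8 T cells, where Crot, the peroxisomal carnitine octanoyltransferase, rose from 59.5 ± 1.62 to 78.0 ± 2.60 CPM (SD, n = 3; log2 change 0.38 ± 0.07, edgeR adjusted p = 0.0435) and 28 did not pass. The call of Crot was lost without isotype 3, where 0 genes were called in CD8 T cells. Of the enzymes tested, 0 of 28 passed in conventional CD4 T cells and 0 of 27 among regulatory T cells. The list's median change was 0.09, -0.05 and 0.00 in the 3 classes. Of 31 other inner-membrane carriers, 0 of 29, 0 of 28 and 0 of 28 tested passed, with medians of 0.07, 0.04 and 0.03. Of 10 genes that track mitochondrial mass, such as Cs (citrate synthase) and Vdac1, 0 of 10 passed in each class, with medians of -0.16, -0.10 and -0.24. At an unadjusted p under 0.05 stood 4, 2 and 4 enzymes, 3, 4 and 2 carriers and 4, 0 and 5 mitochondrial mass genes in the 3 classes. Of all genes tested, 2098 of 11738, 1655 of 10938 and 2199 of 10422 stood there, in the same order of classes. DESeq2 called 2, 0 and 0 of the enzymes, 0 carriers in any class and 1, 0 and 0 of the mass genes.

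Among 23 genes of fatty acid uptake, activation and storage, 17 were tested in each class. Hilpda, a lipid droplet protein that inhibits the lipase ATGL, fell in CD8 T cells from 275, 452 and 380 to 149.5, 147 and 171 CPM (-1.25 ± 0.18, edgeR adjusted p = 0.0392), and 16 did not pass. This CD8 call was lost without isotype 3, where 0 genes were called in the class. Hilpda also fell in regulatory T cells, from 546, 583 and 520 to 459, 324 and 388 CPM (-0.47 ± 0.11, edgeR adjusted p = 0.0476). Abhd5, the activator of ATGL, rose there from 12.1, 8.77 and 10.4 to 16.3, 17.1 and 18.2 CPM (0.71 ± 0.17, edgeR adjusted p = 0.0494). Dbi itself, whose product the antibody binds, fell in regulatory T cells from 253, 244 and 261 to 188, 200.1 and 156 CPM (-0.45 ± 0.10, edgeR adjusted p = 0.0351). In CD8 and conventional CD4 T cells Dbi had changes of -0.16 ± 0.11 and -0.26 ± 0.09 that did not pass. In conventional CD4 T cells 0 of 17 passed, with 5 at an unadjusted p under 0.05 and 2 called by DESeq2. Of all 10938 genes tested there, 1655 had an unadjusted p under 0.05.

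Of 26 regulators of fatty acid oxidation, Pdk1 was the one called in each class. It encodes a pyruvate dehydrogenase kinase, which holds pyruvate back from the mitochondrial citric acid cycle. It fell from 39.6 ± 1.91 to 24.2 ± 1.75 CPM in CD8, from 30.8 ± 1.16 to 17.9 ± 2.91 CPM in conventional CD4 and from 33.3 ± 0.85 to 16.03 ± 1.94 CPM in regulatory T cells (SD, n = 3). The log2 changes were -0.73 ± 0.09, -0.77 ± 0.13 and -1.04 ± 0.13 (SE; edgeR adjusted p = 0.0141, 0.0493 and 0.00453). Rxra, a partner of the PPAR receptors, rose in CD8 T cells from 1.96 ± 0.28 to 5.35 ± 0.94 CPM (1.44 ± 0.21, edgeR adjusted p = 0.0314), and Prkag1, a subunit of AMP-activated kinase, from 37.1 ± 2.49 to 51.8 ± 2.01 CPM (0.47 ± 0.08, edgeR adjusted p = 0.0392). Sirt1, a deacetylase, rose in regulatory T cells from 22.9 ± 3.65 to 34.0 ± 3.42 CPM (0.58 ± 0.14, edgeR adjusted p = 0.0499). Of the regulators tested, 18 of 21 in CD8, 20 of 21 in conventional CD4 and 18 of 20 in regulatory T cells did not pass. The CD8 calls of Pdk1, Rxra and Prkag1 were lost without isotype 3, where 0 genes were called in that class. In conventional CD4 T cells 2 genes in all were called without isotype 3. In regulatory T cells the genes called went from 360 to 52 without isotype 3, 44 without anti-ACBP 2 and 38 without anti-ACBP 3. Without isotype 2 they rose to 772. Which of the named regulatory T cell calls were kept in these fits is not given here.

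Across clusters the members had distinct profiles, given here as levels over the 6 mice without a test, since the clusters were drawn from the same cells. Ucp2 was highest in cluster 7 at 1245 ± 307 CPM (SD over 6 mice; lowest 919.8, median 1193, highest 1597), then in cluster 5 (926 ± 191) and cluster 1 (892 ± 175). Cluster 7 was above cluster 5 in 6 of 6 mice. Below these came clusters 3 (770 ± 50.5), 8 (746 ± 159), 2 (731 ± 121), 0 (711 ± 77.9), 4 (655 ± 92.0) and 6 (651 ± 62.1). The ranges of each neighbouring pair in this order overlapped, while those of cluster 7 and cluster 6 did not. Part of the spread is the difference between groups, with means of 1513 CPM (isotype) and 976 CPM (anti-ACBP) in cluster 7.

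Cluster 4, which holds cells in S or G2M alone, had the highest mean of some members and the lowest of others. How common this is among all genes was not computed. Etfa was highest there at 102 ± 4.99 CPM, above the next cluster (5, 87.0 ± 9.49) in 6 of 6 mice, and Acadl at 155 ± 10.1 CPM, above cluster 3 (131 ± 6.77) in 6 of 6 mice. Hadha (70.5 ± 6.29 CPM), Cpt2 (7.39 ± 1.45) and Cpt1a (30.9 ± 5.15) also had their highest mean in cluster 4, but above the next cluster in only 4, 3 and 4 of 6 mice. Slc25a20 (29.7 ± 5.90 CPM) and Acadvl (34.3 ± 4.01) had their lowest mean there, each below cluster 8 in 4 of 6 mice. The top of Slc25a20 was cluster 2, the regulatory T cells, at 52.0 ± 3.93 CPM, with a range apart from that of cluster 4, and the top of Acadvl was cluster 7 at 56.7 ± 8.10 CPM.

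Cpt1a was the flattest member, with 1.20 times as much in its highest as in its lowest cluster (5, 25.8 ± 5.10 CPM) and overlapping ranges. The other ratios of highest to lowest ran from 1.24 for Hadha to 1.91 for Ucp2. Acadm and Hadhb were highest in cluster 0, the large CD8 cluster, at 21.4 ± 2.51 and 86.3 ± 4.74 CPM. Acadm was lowest in cluster 2 (14.2 ± 2.67 CPM), and Hadhb, Acadl and Etfa were lowest in cluster 8, whose values rest on few cells in 2 mice. With plain CPM or without the DF1 FALSE cells, the highest cluster changed for Cpt1a (8 with plain CPM), Cpt2 (3 without those cells) and Hadha (0 without those cells), and the lowest for Acadm, Hadha and Ucp2 (cluster 4 in place of 6).

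**Figure D4:**
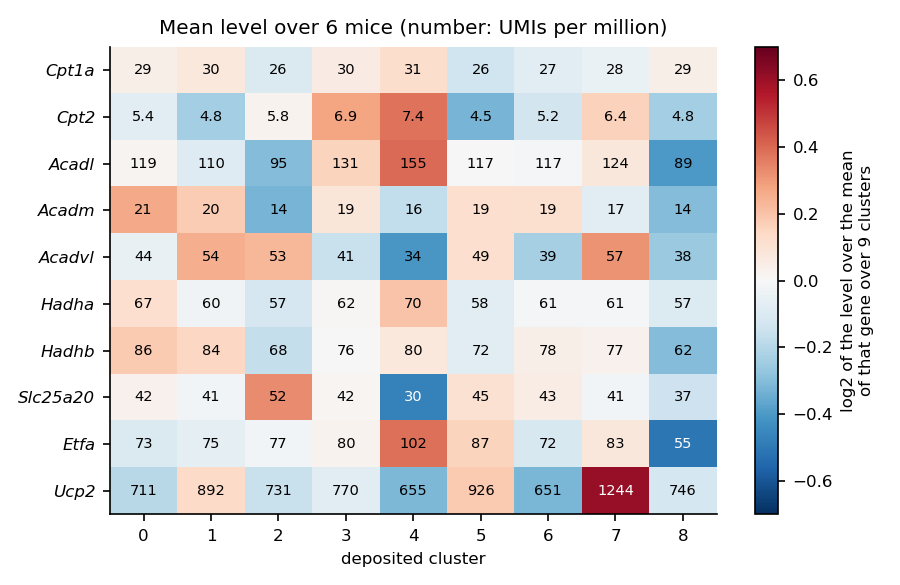
Mean level of each gene in each deposited cluster over 6 mice (numbers, TMM-scaled CPM), with colour giving log2 of that level over the gene's own mean over 9 clusters. Ucp2 is highest in cluster 7, and in cluster 4 Etfa and Acadl are at their highest while Slc25a20 and Acadvl are at their lowest; colours compare clusters within a gene, not genes with each other.

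Among 7445 other genes that averaged at least 10 CPM, those whose mean log2 level over the 9 clusters followed Ucp2 most closely were Ubl7 (Pearson r 0.976), 1810009J06Rik (0.969), Ptprs (0.968), Gm2663 (0.957) and Wsb2 (0.951). For Cpt1a they were Phf2 (0.935), Dicer1 (0.925), Bri3 (0.875), Rplp1 (0.864) and Bclaf1 (0.856). The 9 points share the same 6 libraries. Without cluster 8, Ubl7 (0.976), 1810009J06Rik (0.976) and Ptprs (0.975) stayed the closest to Ucp2, while for Cpt1a Trim44 (0.952), Dicer1 (0.949) and Fopnl (0.941) came first, Rplp1 and Bclaf1 left the first 5, and Hadha moved to 0.738. Cpt2 averaged under 10 CPM and was not compared. Of the other members over 9 clusters, Acadvl was closest to Ucp2 (r 0.745, rank 245 of 7445) and Hadha farthest (-0.281). For Cpt1a, Hadha was closest (0.549, rank 376) and Slc25a20 farthest (-0.654).

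Cells in S or G2M were then compared with cells in G1 of the same mouse and class, as the deposited phase labels them, with the mouse as a block. In CD8 T cells 30.6% of genes tested were higher and 32.2% lower in S or G2M, so a call is common here. In conventional CD4 T cells it was 20.1% and 18.9%, and in regulatory T cells 30.6% and 27.7%. Cells in S or G2M were also deeper, with 7966 to 13647 UMIs per cell by mouse against 4976 to 8858 in CD8, 5537 to 11240 against 3997 to 7785 in conventional CD4 and 9108 to 18318 against 4362 to 8032 in regulatory T cells. The part of depth was not tested.

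Of the 10 members, 2 were higher and 4 lower in S or G2M in CD8, 2 and 1 in conventional CD4 and 3 and 2 in regulatory T cells. Etfa rose in each class and in 6 of 6 mice each time. In CD8 T cells it ranged from 62.3 to 72.5 CPM (median 67.7) in G1 and from 85.6 to 93.5 CPM (median 92.1) in S or G2M, without overlap (log2 change 0.43 ± 0.04 SE, edgeR adjusted p = 1.18e-10). In regulatory T cells the ranges were 62.6 to 73.5 and 88.2 to 123.9 CPM (0.73 ± 0.08, edgeR adjusted p = 1.13e-09), and in conventional CD4 T cells 70.9 to 79.8 and 79.3 to 107 CPM (0.31 ± 0.07, edgeR adjusted p = 0.000175). Etfb, the other subunit of the flavoprotein, also rose in each class, by 0.49, 0.30 and 0.54 on the log2 scale in CD8, conventional CD4 and regulatory T cells.

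Acadl rose as well: from 108 to 118 CPM in G1 to 127.9 to 147 CPM in S or G2M in CD8 T cells (0.31 ± 0.03, edgeR adjusted p = 1.79e-09) and from 79.9 to 101 CPM to 112 to 123 CPM in regulatory T cells (0.37 ± 0.07, edgeR adjusted p = 1.99e-05), in 6 of 6 mice and without overlap in both. In conventional CD4 T cells it was higher in 4 of 6 mice (0.15 ± 0.06, edgeR adjusted p = 0.0341), a call lost without isotype 1 (0.09, edgeR adjusted p = 0.274), isotype 2 (0.0632) or anti-ACBP 1 (0.0933), and without the DF1 FALSE cells (0.405). Cpt2 rose in regulatory T cells (0.58 ± 0.22, edgeR adjusted p = 0.0257), in 5 of 6 mice, a call lost without each isotype mouse in turn (edgeR adjusted p from 0.0600 to 0.128), without the DF1 FALSE cells (0.0926), and with S (0.192) or G2M cells (0.0553) alone.

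Slc25a20 and Ucp2 went the other way. Slc25a20 ranged from 31.7 to 48.9 CPM (median 43.6) in G1 and 26.6 to 37.0 CPM (median 32.2) in S or G2M in CD8 T cells, lower in 6 of 6 mice (-0.38 ± 0.05, edgeR adjusted p = 6.04e-08). It was lower in regulatory T cells in 6 of 6 mice (-0.27 ± 0.09, edgeR adjusted p = 0.00963), a call lost without the DF1 FALSE cells (edgeR adjusted p = 0.0817), and in conventional CD4 T cells in 5 of 6 (-0.14 ± 0.08, edgeR adjusted p = 0.206). For CD8, conventional CD4 and regulatory T cells, Ucp2 fell by 0.14 ± 0.03, 0.14 ± 0.04 and 0.13 ± 0.04 (edgeR adjusted p = 2.39e-05, 0.00288 and 0.0120), in 6 of 6 mice each. Within a class its ranges overlapped, for example 628 to 804 CPM in G1 and 568 to 710 CPM in S or G2M in CD8 T cells.

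The fall of Ucp2 was seen in G2M cells alone, by 0.31, 0.24 and 0.17 in CD8, conventional CD4 and regulatory T cells (edgeR adjusted p = 3.15e-10, 0.000205 and 0.00928). In S cells alone the changes were -0.06, -0.07 and -0.12 and did not pass (edgeR adjusted p = 0.0841, 0.249 and 0.0521). Whether S and G2M differed was not tested. The regulatory T cell call was also lost without isotype 2 (-0.09, edgeR adjusted p = 0.110). In CD8 T cells Acadvl (-0.35 ± 0.05, edgeR adjusted p = 3.21e-07) and Acadm (-0.22 ± 0.07, edgeR adjusted p = 0.00603) were lower in 6 of 6 mice each, and the call of Acadm was lost without isotype 1 (-0.15, edgeR adjusted p = 0.0589). With S and G2M cells pooled, Cpt1a, Hadha and Hadhb did not pass in any class. In G2M cells alone Cpt2 (0.43, edgeR adjusted p = 0.0112), Hadha (0.15, 0.0114) and Hadhb (-0.12, 0.0420) passed in CD8 T cells, and in S cells alone Cpt1a (-0.31, 0.0378) passed in regulatory T cells. Hadha also passed in CD8 T cells without anti-ACBP 2 (0.11, edgeR adjusted p = 0.0315). The calls of Etfa (0.22, edgeR adjusted p = 0.0984) and Acadl (0.13, 0.240) in conventional CD4 T cells were lost with G2M cells alone.

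**Figure D5:**
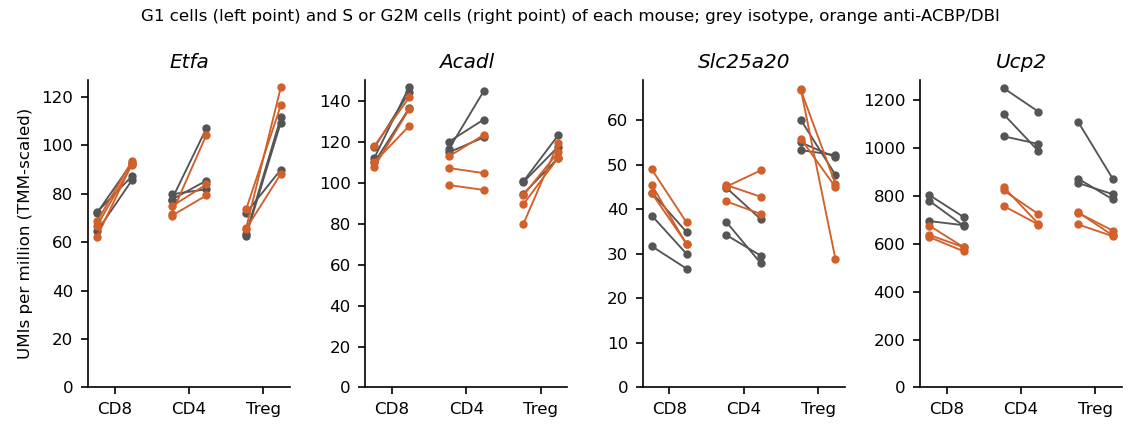
Level (TMM-scaled CPM, linear axes from 0) of Etfa, Acadl, Slc25a20 and Ucp2 in G1 cells (left point) and S or G2M cells (right point) of each mouse, joined by a line, in the 3 T cell classes; grey is isotype and orange anti-ACBP/DBI. Etfa is higher and Ucp2 lower in S or G2M in 6 of 6 mice in each class.

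The wider lists were split in the same comparison. Of the 28 other β-oxidation enzymes tested in CD8 T cells, 5 were higher and 8 lower, with Acads, Acadsb, Acot9 and Crot lower and Etfb higher. In regulatory T cells 6 of 25 were higher, among them Hadh (0.71) and Echs1 (0.55), and 8 lower. The 10 genes of mitochondrial mass mostly rose, 9 of 10 in CD8, 8 of 10 in conventional CD4 and 10 of 10 in regulatory T cells (medians 0.36, 0.29 and 0.63, against -0.03, -0.03 and -0.02 for all genes). Of the inner-membrane carriers, 9 of 28 were higher and 5 lower in CD8, 4 and 1 of 27 in conventional CD4 and 8 and 4 of 26 in regulatory T cells, with Slc25a5, an ADP/ATP carrier, higher by 0.49, 0.41 and 0.83. Dbi was higher by 1.02, 0.71 and 1.18.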

How the data were processed

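Tumour T cells of 6 mice were profiled by 10x 5′ single-cell RNA sequencing. The authors deposited raw UMI counts per gene and barcode for each mouse and a table of cells with cluster, phase and quality columns; Cell Ranger 7.0.0, Seurat and mm10 are named in the submitters' processing notes. Of 69249 barcodes, the 30749 cells in that table were used and 38500 were not. No doublet caller was run: the authors' table has a DF1 column, which no source used here explains, and 2407 cells marked FALSE there (median 9970 UMIs against 5948) were kept and left out in an alternative, as were 1028 cells with at least 2 TRB chains. Between libraries, 536 barcodes were shared.

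Counts were summed per mouse and class or cluster, with at least 20 cells per mouse, and tested with edgeR 4.0.16 (filterByExpr, TMM, quasi-likelihood; R 4.3.3) on the 6 mice, adjusted by Benjamini-Hochberg over all genes tested at 0.05. Phase and interaction fits had the mouse as a block. Replicates are the mice the labels name. The code was tested on simulated data first. Alternatives were DESeq2 1.42.0, RLE factors, no filter on low counts, a replicate block, stricter cells and leaving out each mouse. The 10 members and all lists were chosen with earlier results of these data known; other genes were named where a list's call passed (at most the 6 smallest p-values per list and comparison), and by likeness over clusters.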

Additional observations from a re-analysis of the deposited data

How the results depend on the processing

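Of the changes computed for single members under the alternatives other than leaving out a mouse, 409 kept direction and side of the threshold, 10 gained a call, 13 lost one and 13 reversed; with each mouse left out these were 485, 9, 19 and 21. Every reversed change was uncalled in both fits.

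The number of genes called in CD8 T cells (109) was 495 with DESeq2, 354 with no filter and 47 without the DF1 FALSE cells; in conventional CD4 T cells (36) 218 with DESeq2, 298 with no filter and 4 with cells matching their lineage; in regulatory T cells (360) 820 with no filter, 203 with cells matching their lineage and 159 in G1 cells; in all T cells (294) 941 with DESeq2, 476 with no filter and 177 without the DF1 FALSE cells. With the replicate block it was 8 in conventional CD4 and 37 in all T cells. Correlations of deviations from the group mean ran from -0.164 to 0.237 between same-numbered mice and from -0.236 to 0.246 between differently numbered mice. With deviations taken from means of 3 mice, these values cannot decide whether the numbers pair the mice. Under the replicate block Ucp2 in conventional CD4 T cells had a change of -0.51 (edgeR adjusted p = 0.0835), and cluster 5 had 1 member called in place of 0.

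Of the members, 0 in place of 1 were called in conventional CD4 T cells under the replicate block, with cells matching their lineage and without the DF1 FALSE cells; 1 in place of 0 in regulatory T cells with DESeq2 and with no filter; 2 (DESeq2) and 1 (no filter) in place of 0 in all T cells; by phase, 1 in place of 3 in conventional CD4 T cells with G2M alone and 3 in place of 5 in regulatory T cells without the DF1 FALSE cells.

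Reversed treatment changes were Hadha in CD8 T cells (-0.007; 0.002 with no filter, 0.048 in G1 cells) and all T cells (-0.008; 0.005 in G1 cells), Cpt2 in conventional CD4 (-0.09; 0.065 in G1 cells) and Etfa in regulatory T cells (-0.058; 0.045 in G1 cells). Reversed phase changes were, in CD8 T cells, Cpt1a (0.003 in G2M) and Hadha (-0.007 in S, -0.008 without the DF1 FALSE cells); in conventional CD4 T cells, Cpt1a (-0.037 in S) and Cpt2 (0.315 in G2M); in regulatory T cells, Cpt1a (0.229 in G2M), Acadm (-0.039 in G2M) and Acadvl (0.05 in S).

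With each mouse left out, genes called ran from 0 to 743 in CD8, 2 to 141 in conventional CD4, 38 to 772 in regulatory and 1 to 402 in all T cells, with the lowest of each in CD8 and conventional CD4 T cells coming without isotype 3, and members called from 0 to 2 in CD8 and all T cells and in cluster 0, 0 to 1 in conventional CD4 T cells and clusters 1, 4, 5 and 7, and 3 to 5 by phase in regulatory T cells. Treatment changes ran for Hadha from -0.034 to 0.032 in CD8, -0.096 to 0.017 in conventional CD4 and -0.032 to 0.042 in all T cells, for Cpt2 from -0.26 to 0.032 in conventional CD4 and -0.026 to 0.207 in regulatory T cells, for Etfa from -0.139 to 0.004 in regulatory T cells and for Cpt1a from -0.506 to 0.126 in cluster 7. Phase changes ran for Cpt1a from -0.098 to 0.011 in CD8, -0.01 to 0.072 in conventional CD4 and -0.106 to 0.071 in regulatory T cells, for Cpt2 from -0.396 to 0.048 in conventional CD4 and for Acadm from -0.023 to 0.049 in regulatory T cells. The causes of these shifts were not tested, apart from leaving fewer mice in a fit.

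Of the cluster levels, 6 moved by more than 1 SD, all with plain CPM: Acadl to 102 CPM in cluster 2 and 121.5 in cluster 3, Acadvl to 57.5 and 38.0, Slc25a20 to 56.0 in cluster 2 and Ucp2 to 714 in cluster 3. Cpt2, with 1319 UMIs in all, is the member limited most by depth, and clusters 6 and 7 gave it no test.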

Other observations

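The 38500 barcodes outside the authors' cell table also carried member UMIs. Per library they summed to 206 to 436 CPM of Ucp2, against 650 to 954 CPM in the used cells, and to 18.6 to 31.3 CPM of Slc25a20, against 35.5 to 44.9 CPM. Hadha and Hadhb were also lower there without overlap. Cpt2 went the other way, with 7.03 to 11.5 against 4.78 to 6.35 CPM. The ranges of Cpt1a, Acadl, Acadm, Acadvl and Etfa overlapped. Sparc, a fibroblast gene, stood at 236 to 626 CPM in these barcodes and at 0.0305 to 0.167 CPM in the used cells.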
